A study of Mus musculus with 9 samples.

Results

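The 7 mouse genes of the CIP/KIP and INK4 families, which encode protein inhibitors of cyclin-dependent kinases, were examined in ovaries of tumour-bearing mice. They were taken by symbol from the 19517 genes of the authors' deposited table, and all 7 were present with values in each of the 3 comparisons: Cdkn1a, Cdkn1b and Cdkn1c of the CIP/KIP family, and Cdkn2a, Cdkn2b, Cdkn2c and Cdkn2d of the INK4 family. The CTX group (3 samples) received cyclophosphamide, an alkylating drug used in chemotherapy. The CAU group (3 samples) is labelled with caulerpin, an indole alkaloid from green algae, and whether it also received cyclophosphamide is not in its labels. The UT group (3 samples) had no treatment. All 9 samples, the untreated ones included, were ovaries of female BALB/c nude mice bearing MDA-MB-231 xenografts, tumours grown from a cell line of human breast cancer. Nude mice lack a thymus and most mature T cells. The labels give no age, dose or time of sampling, and they do not say whether the numbered samples are separate mice; the p-values therefore rest on the spread among these samples, part of which may be technical. The study's title names granulosa cell senescence, a stable arrest of division in which some of these inhibitors are classical markers, and the comparisons bear on their mRNA.

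CIP/KIP proteins (p21 from Cdkn1a, p27 from Cdkn1b and p57 from Cdkn1c) bind complexes of cyclins with kinases, above all those of Cdk2, and hold cells before DNA replication. INK4 proteins (p16 from Cdkn2a, p15 from Cdkn2b, p18 from Cdkn2c and p19 from Cdkn2d) bind Cdk4 and Cdk6 and keep cyclin D from activating them, so that the retinoblastoma protein stays active. Cdkn1a is a direct target of the transcription factor p53, which DNA damage activates. In the ovary, p27 restrains the activation of primordial follicles and p21 and p27 accompany the exit of granulosa cells from division at luteinisation. Much of the control of p27 acts on the protein, which mRNA levels do not show.

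The windows before the annotated starts of Cdkn1a are shown because this gene carries the differences below, and that of Cdkn1b because it is the most precisely measured member. Sequences are from RefSeq on GRCm38.p6, 250 bases before each start, 5′ to 3′ on the gene's strand. Capitals mark 2 of the motifs searched on both strands, the p53 pair CATGNNNNNNCATG, which reads the same on both strands, and the GC box GGGCGG. No base was covered by both motifs.
Cdkn1a, upstream start, chr17:29090729-29090978, plus strand: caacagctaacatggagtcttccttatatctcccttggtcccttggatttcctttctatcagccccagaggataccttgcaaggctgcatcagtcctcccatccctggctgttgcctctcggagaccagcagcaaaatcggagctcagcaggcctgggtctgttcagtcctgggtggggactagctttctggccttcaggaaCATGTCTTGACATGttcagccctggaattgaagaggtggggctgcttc
Cdkn1a, downstream start, chr17:29093519-29093768, plus strand: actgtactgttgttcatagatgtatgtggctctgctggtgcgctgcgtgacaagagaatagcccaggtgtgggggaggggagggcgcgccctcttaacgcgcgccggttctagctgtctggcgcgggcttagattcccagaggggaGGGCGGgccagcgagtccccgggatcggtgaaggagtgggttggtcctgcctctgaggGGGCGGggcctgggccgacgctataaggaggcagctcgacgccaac
Cdkn1b, chr6:134920151-134920400, plus strand: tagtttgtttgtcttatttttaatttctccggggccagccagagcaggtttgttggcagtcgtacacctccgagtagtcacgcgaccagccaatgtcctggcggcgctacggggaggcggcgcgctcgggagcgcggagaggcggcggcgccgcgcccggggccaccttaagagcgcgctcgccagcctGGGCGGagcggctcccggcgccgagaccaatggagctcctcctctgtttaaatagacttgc

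The p53 pair was found in the window of the upstream Cdkn1a start. With 3 bases added on either side, it makes a run of 20 bases at chr17:29090928-29090947, shown again with the CATG letters in capitals.
p53 pair of Cdkn1a: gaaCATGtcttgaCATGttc
It lies 32 to 51 bases before the upstream start and 2822 bases before the downstream start. Of all 32851 windows of this length in the RefSeq set, 161 (0.490%) held the pair. Some genes have more than 1 window. By gene, 154 of 27025 held the pair and 9555 held a GC box, which was in 32.7% of all windows. Of the 6 members with a window, Cdkn1a alone held the pair, while GC boxes were found before Cdkn1a, Cdkn1b, Cdkn2a, Cdkn2c and Cdkn2d. A further motif searched, the cyclic AMP response element TGACGTCA, was found before Cdkn2b alone among the members and in 1.55% of all windows. A match describes letters and does not show that a factor was bound in these ovaries.

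On GRCm38.p6, Cdkn1a lies at chr17:29090979-29100722 and Cdkn1b at chr6:134920401-134925525, both on the plus strand. Cdkn1c, an imprinted gene expressed from the maternal allele, lies at chr7:143458339-143461059 on the minus strand. Cdkn2a (chr4:89274473-89294619) and Cdkn2b (chr4:89306289-89311032) are neighbours on the minus strand with 11669 bases between them. Cdkn2c lies farther along the same chromosome (chr4:109660876-109666756), and Cdkn2d at chr9:21288459-21291421, both on the minus strand. Cdkn2a has 2 RefSeq starts, at position 89294619 for the transcript of ARF, which frees p53 from its ligase MDM2, and at position 89282192 for that of p16. The deposited table has 1 value for the gene, so p16 and ARF cannot be told apart. The annotation also places genes on the opposite strand over exons of Cdkn1a (273 bases of AC167363.2) and of Cdkn1c (625 bases of Gm44732), and whether reads were counted by strand is not given in the sources used here.

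Each comparison has 1 log2 fold change, 1 DESeq2 p-value and 1 adjusted p per gene, made by the authors from the 3 samples of each group. No value per library was used here, so neither levels per group nor overlap between samples can be given, and sequencing depth is unknown. The standard error (SE) is the one that each p-value implies, and the 95% intervals are built from it. In bulk tissue, fewer cells of a type and less RNA per cell cannot be told apart. A gene is called changed at a deposited adjusted p under 0.05. A column named for a pair of groups was read as the second group over the first, which its header does not state; the opposite reading would turn every direction given here.

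Among the inhibitors, Cdkn1a rose in CTX ovaries and none of the other 6 passed the test. In the authors' deposited table, Cdkn1a had a log2 fold change of 1.99 in CTX against UT (SE 0.32, DESeq2 adjusted p = 9.15e-07). As a fold this is 3.98, with a 95% interval from 2.58 to 6.16. Of the 19260 genes with a p-value, 10 had a smaller one, and 3 of the 91 genes called higher had a larger log2 fold change. The 1 of 7 inhibitors called higher stands against 0.472% of all genes called higher in this comparison, and none was called lower, against 0.82% of all genes (1.29% in either direction). After the fold changes were centred on the median of all genes, 156 genes were called higher and 134 lower, in place of 91 higher and 158 lower, and Cdkn1a remained called at a log2 fold change of 2.02.

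Both relatives of Cdkn1a lay near 0 with narrower intervals. Cdkn1b was at 0.13 (SE 0.09) by the authors' deposited table, and its interval from -0.05 to 0.31 leaves out a fold above 1.24. Cdkn1c was at -0.12 (SE 0.24), with an interval from -0.60 to 0.35. Adjusted p in the authors' deposited table was 0.749 for Cdkn1b and 0.978 for Cdkn1c. Their differences from Cdkn1a, with the errors of the genes taken as independent, were large. The log2 fold change of Cdkn1a exceeded that of Cdkn1b by 1.86 (95% interval 1.21 to 2.52) and that of Cdkn1c by 2.12 (1.33 to 2.91).

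The INK4 genes split into a pair with smaller SEs, Cdkn2c and Cdkn2d, and a pair with larger ones, Cdkn2a and Cdkn2b. In CTX against UT, 25.2% of all genes had a smaller SE than Cdkn2c and 52.1% a smaller SE than Cdkn2d. Cdkn2c, the p18 gene, was at 0.03 (SE 0.12) and Cdkn2d, the p19 gene, at -0.01 (SE 0.22) by the authors' deposited table; centred on the median of all genes, the sign of Cdkn2d turned, to 0.02. The interval of Cdkn2c, from -0.21 to 0.26, allows folds from 0.863 to 1.20. Cdkn2a, a widely used marker of senescence, was at -0.60 (SE 1.14) and Cdkn2b, which TGF-beta induces, at -0.90 (SE 0.75) by the authors' deposited table. Their intervals are wide. That of Cdkn2a allows folds from 0.140 to 3.10 in CTX against UT, and that of Cdkn2b folds from 0.193 to 1.49, so neither a rise nor a fall of 2-fold was detectable for Cdkn2a. Adjusted p for the 4 INK4 genes ran from 0.849 to 0.999 in the authors' deposited table, and 0 of the 4 had an unadjusted p under 0.05. The difference of Cdkn1a from each of the 4 INK4 genes had a 95% interval above 0, the lowest bound being 0.28, against Cdkn2a.

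**Figure D1:**
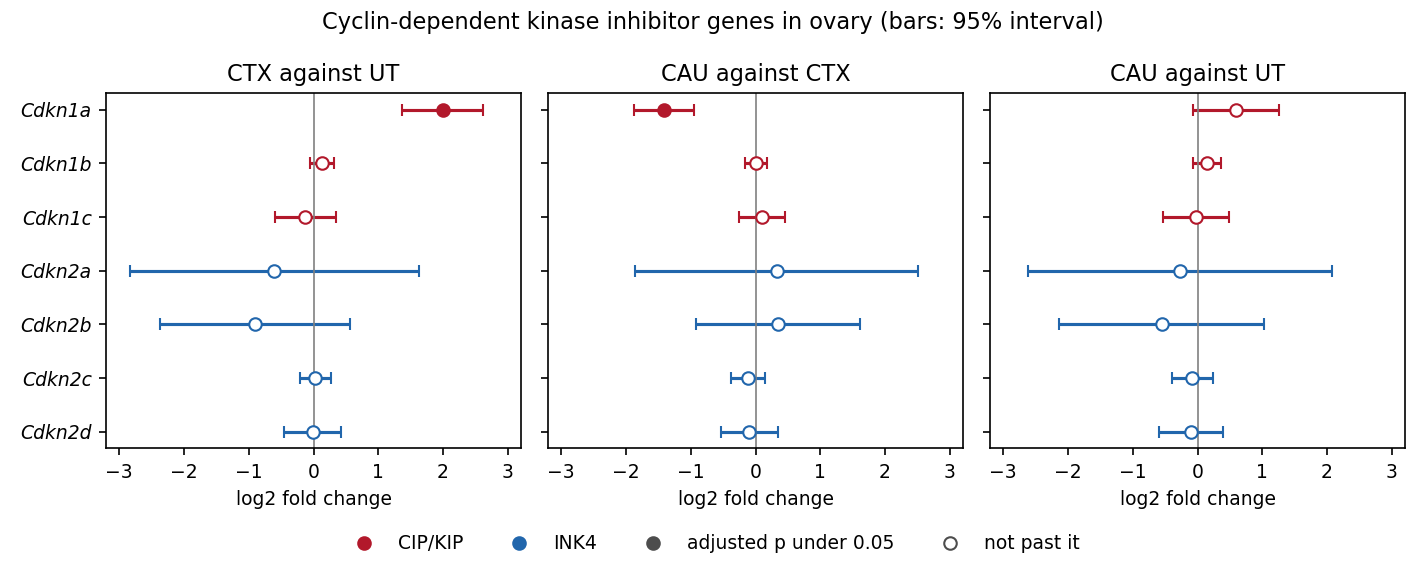
Log2 fold change (horizontal axis) of the 7 inhibitor genes (rows) in the 3 comparisons (panels), with 95% intervals from the implied standard error; filled points have a deposited adjusted p under 0.05. Cdkn1a sits at 1.99 in CTX against UT and at -1.41 in CAU against CTX, and all other points are open, with the widest intervals at Cdkn2a and Cdkn2b.

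In CAU ovaries Cdkn1a was lower than in CTX ovaries, and again none of the other 6 inhibitors passed. The log2 fold change in the authors' deposited table was -1.41 (SE 0.24, DESeq2 adjusted p = 6.35e-06). The level in CAU was thus 0.376 of that in CTX, with a 95% interval from 0.273 to 0.518. Of 19245 genes, 6 had a smaller p-value, and 3 of the 25 genes called lower had a more negative log2 fold change. The share of all genes called lower in this comparison was 0.13%, that called higher was 0.312% and that called in either direction 0.442%. This comparison and the one above share the CTX samples, so their opposite signs are not independent of each other.

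Cdkn1b had the smallest difference of the family between CAU and CTX. It was at 0.01 (SE 0.09) by the authors' deposited table, with an interval from -0.16 to 0.18, or folds from 0.894 to 1.14. Cdkn1c was at 0.09 (SE 0.18), Cdkn2c at -0.11 (SE 0.13) and Cdkn2d at -0.09 (SE 0.22) by the authors' deposited table. Cdkn2a was at 0.33 (SE 1.12) and Cdkn2b at 0.34 (SE 0.65), both in the direction opposite to that of Cdkn1a. Adjusted p was 1.000 when rounded for each of these 6 genes in the authors' deposited table, and the lowest unadjusted p among the 6 was 0.393, for Cdkn2c. The difference between Cdkn1a and another member had a 95% interval below 0 for 5 of the 6. For Cdkn2a it was -1.74, with an interval from -3.97 to 0.50, so a difference from Cdkn1a was not detectable there.

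Between CAU and UT no inhibitor passed. Cdkn1a was at 0.59 (SE 0.34) by the authors' deposited table, a fold of 1.51 with an interval from 0.952 to 2.38, and its unadjusted p was 0.0800. The order of the group levels of Cdkn1a was thus CTX, CAU and UT, from high to low. CAU and UT, the neighbours at the low end, did not differ by the authors' DESeq2 test. As built, the interval allows a level in CAU equal to that in UT and also one more than 2-fold above it. Intervals of this comparison may be too wide: the z values of all genes (log2 fold change over SE) had a robust spread of 0.711. The spread was 1.01 in CTX against UT and 0.841 in CAU against CTX. With z scaled to a spread of 1, Cdkn1a had a Benjamini-Hochberg adjusted p of 0.262. Cdkn1b was at 0.15 (SE 0.11) and Cdkn1c at -0.02 (SE 0.26) by the authors' deposited table. All 4 INK4 genes were below 0, between -0.55 for Cdkn2b and -0.08 for Cdkn2c, with intervals that all include 0. By the authors' DESeq2 test 0 of 7 inhibitors were called, against 0.0518% of all genes (0.0311% higher and 0.0207% lower), and 0 of 7 had an unadjusted p under 0.05. The 6 differences between Cdkn1a and the other members all had intervals that include 0 in this comparison.

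The 7 genes differed widely in precision. The size that would have passed was set for each gene as its SE times the z of the largest p-value called in that comparison. In CTX against UT this size was 0.31 on the log2 scale for Cdkn1b, 0.42 for Cdkn2c, 0.77 for Cdkn2d and 0.83 for Cdkn1c. For Cdkn1a it was 1.10, so its change was 1.81 times what was needed. For Cdkn2b it was 2.58, a fold of 5.97, and for Cdkn2a 3.91, a fold of 15.0. In CAU against CTX the sizes ran from 0.33 for Cdkn1b to 4.14 for Cdkn2a. In CAU against UT, where few genes were called, they ran from 0.48 for Cdkn1b to 5.19 for Cdkn2a. Of all genes, 82.7% had a smaller SE than Cdkn2a in CTX against UT, and 9.65% had a smaller SE than Cdkn1b.

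If the variances of the groups add within each comparison, the 3 SEs of a gene give 1 SE per group mean. For Cdkn1a these were 0.149 in CTX, 0.183 in CAU and 0.284 in UT on the log2 scale. UT had the largest of the 3 in 6 of the 7 inhibitors, and CAU in Cdkn2c, where it was 0.120 against 0.107 in UT. CTX had the smallest in all 7. DESeq2 shares 1 dispersion per gene among the groups of a fit, so these values are not measured spreads of the groups.

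**Figure D2:**
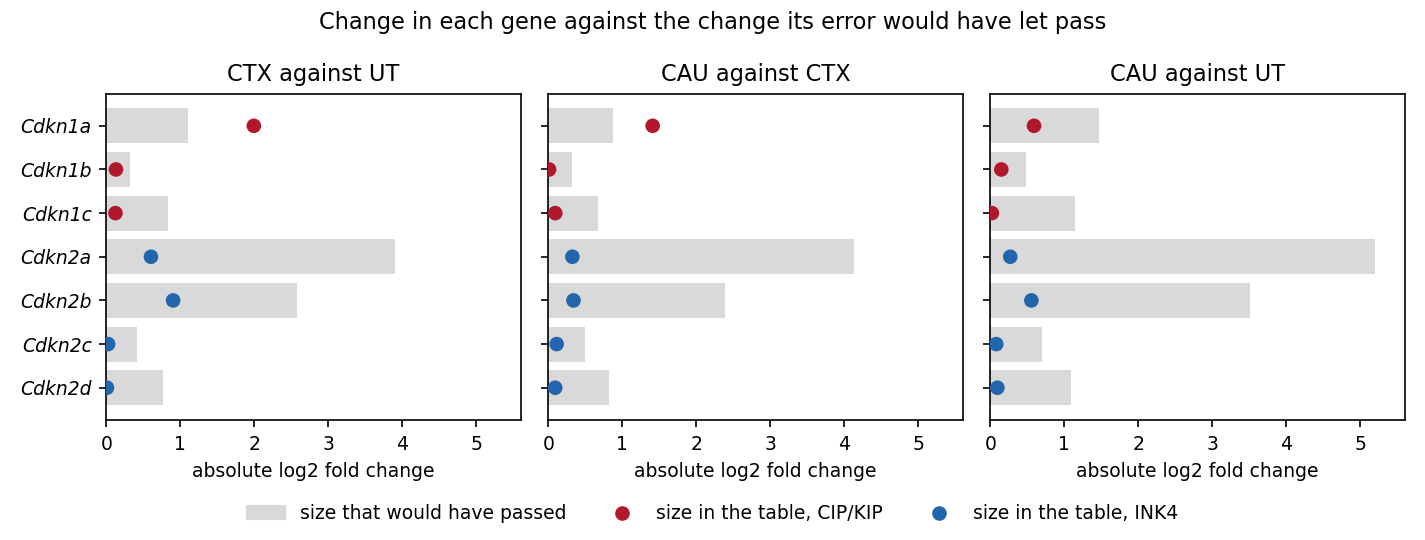
Absolute log2 fold change of each inhibitor gene (points) beside the size that its error would have let pass (grey bars), in the 3 comparisons (panels). The point of Cdkn1a lies beyond its bar in CTX against UT (1.99 beyond 1.10) and in CAU against CTX, and every other point lies inside its bar; the bars of Cdkn2a reach 3.91 to 5.19.

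The genes around the inhibitors were read from 9 lists. They cover cyclins and their kinases, with regulators of these kinases, and the pocket proteins and E2F factors downstream. Further lists hold the ligases that degrade CIP/KIP proteins, the ARF and p53 route and Polycomb repressors of the INK4 genes. The rest hold transcription factors of the inhibitor genes, and neighbouring genes in 2 lists. Of 129 measured genes besides the inhibitors, 0 were called in each of the 3 comparisons by the authors' DESeq2 test. The shares of all genes called were 1.29% in CTX against UT, 0.442% in CAU against CTX and 0.0518% in CAU against UT. At such shares, few calls or none would come from these 129 genes or from any single list. At an unadjusted p under 0.05 there were 27 in CTX against UT (20.9%, against 10.2% of all genes), 14 in CAU against CTX (10.9%, against 5.36%) and 3 in CAU against UT (2.33%, against 3.46%). The median log2 fold change of the 129 was 0.07 in CTX against UT, where that of all genes was -0.03, and 90 were positive. In CAU against CTX it was -0.06, where that of all genes was 0.00, and 89 were negative.

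The targets of the inhibitors, and the genes listed with them, showed small differences. In the authors' deposited table, Cdk2 was at 0.17 (SE 0.11), Cdk4 at 0.15 (SE 0.13) and Cdk6 at 0.10 (SE 0.10) in CTX against UT. In CAU against CTX the same table gives -0.09 (SE 0.10) for Cdk2, -0.01 (SE 0.06) for Cdk4 and -0.19 (SE 0.10) for Cdk6. Cdk7, which activates the other kinases, was at 0.00 (SE 0.08) in CTX against UT in the authors' deposited table. The G1 list holds cyclins and their kinases with the regulators Cdc25a and Mnat1. The S and M phase list holds, besides cyclins and Cdk1, the regulators Cdc25b, Cdc25c, Cks1b, Cks2, Wee1 and Pkmyt1. Of the 12 genes of the G1 list, 10 were positive in CTX against UT (median 0.11), and of the 12 of the S and M phase list 11 were positive (median 0.26). In CAU against CTX 10 of 12 and 11 of 12 were negative, with medians of -0.08 and -0.20. In the S and M phase list, Ccnb2, a mitotic cyclin, was at -0.30 (SE 0.10) and unadjusted p = 0.00297 in the authors' deposited table. Ccnd2, the cyclin D of granulosa cells, is named here after its value was seen: it was at 0.31 (SE 0.09, adjusted p = 0.0670) in CTX against UT in the authors' deposited table.

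Downstream, Rb1, the retinoblastoma gene, was at -0.03 (SE 0.18) in CTX against UT and at 0.03 (SE 0.11) in CAU against CTX in the authors' deposited table. E2f4, the E2F factor of resting cells, was at 0.07 (SE 0.10) in CTX against UT in the authors' deposited table. Of the 18 pocket protein and E2F genes, 14 were positive in CTX against UT (median 0.17) and 14 were negative in CAU against CTX (median -0.06). An unadjusted p under 0.05 by DESeq2 was found for 6 of the 18 in CTX against UT and for 0 in CAU against CTX. E2f8 is named after its value was seen: it was at 0.69 (SE 0.22, adjusted p = 0.0840) in CTX against UT in the authors' deposited table. In CAU against UT, Rbl1, the p107 gene, was at 0.34 (SE 0.11) by the authors' deposited table, with adjusted p = 0.674.

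The regulators of the inhibitors gave no call either. Trp53, the p53 gene, was at 0.12 (SE 0.14) in CTX against UT and at -0.07 (SE 0.10) in CAU against CTX in the authors' deposited table. Mdm2, both its ligase and its target, was at 0.11 (SE 0.09) in CTX against UT and at -0.20 (SE 0.08, unadjusted p = 0.0103) in CAU against CTX in the authors' deposited table. Skp2, the F-box protein that marks p27 for degradation, was at 0.38 (SE 0.20) in CTX against UT and at -0.18 (SE 0.18) in CAU against CTX in the authors' deposited table. Bmi1, a Polycomb repressor of the INK4 genes, was at 0.02 (SE 0.09) and at -0.07 (SE 0.12) in the same table and order. Ezh2, the Polycomb methyltransferase, is named after its value was seen: at 0.31 (SE 0.09, adjusted p = 0.0566) in CTX against UT in the authors' deposited table, it passed when only genes with an SE of at most 1 were adjusted (adjusted p = 0.0471).

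Transcription factors and neighbours included larger values, none of them called. Smad3, a mediator of TGF-beta and the most precisely measured factor, was at 0.08 (SE 0.06) in CTX against UT in the authors' deposited table. Of 28 such factors 15 were positive in CTX against UT (median 0.04) and 19 were negative in CAU against CTX (median -0.12). The next genes are named after their values were seen. Klf6 was at -0.58 (SE 0.19, adjusted p = 0.0974) in CTX against UT by the authors' deposited table. Cebpa, a factor of differentiation, was at -0.48 (SE 0.13, adjusted p = 0.0598) in CAU against CTX by the authors' deposited table. Slc22a18, an imprinted neighbour of Cdkn1c, was at -1.51 in CTX against UT (unadjusted p = 0.0181) and at 1.47 in CAU against CTX (unadjusted p = 0.0338) in the authors' deposited table. Nap1l4, another neighbour of Cdkn1c, was at 0.07 (SE 0.07) in CTX against UT in the authors' deposited table. Mtap, beside Cdkn2a, was at 0.06 (SE 0.09) in CTX against UT in the authors' deposited table. No neighbour was called, among 10 genes near Cdkn1c and 4 beside the INK4 genes.

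**Figure D3:**
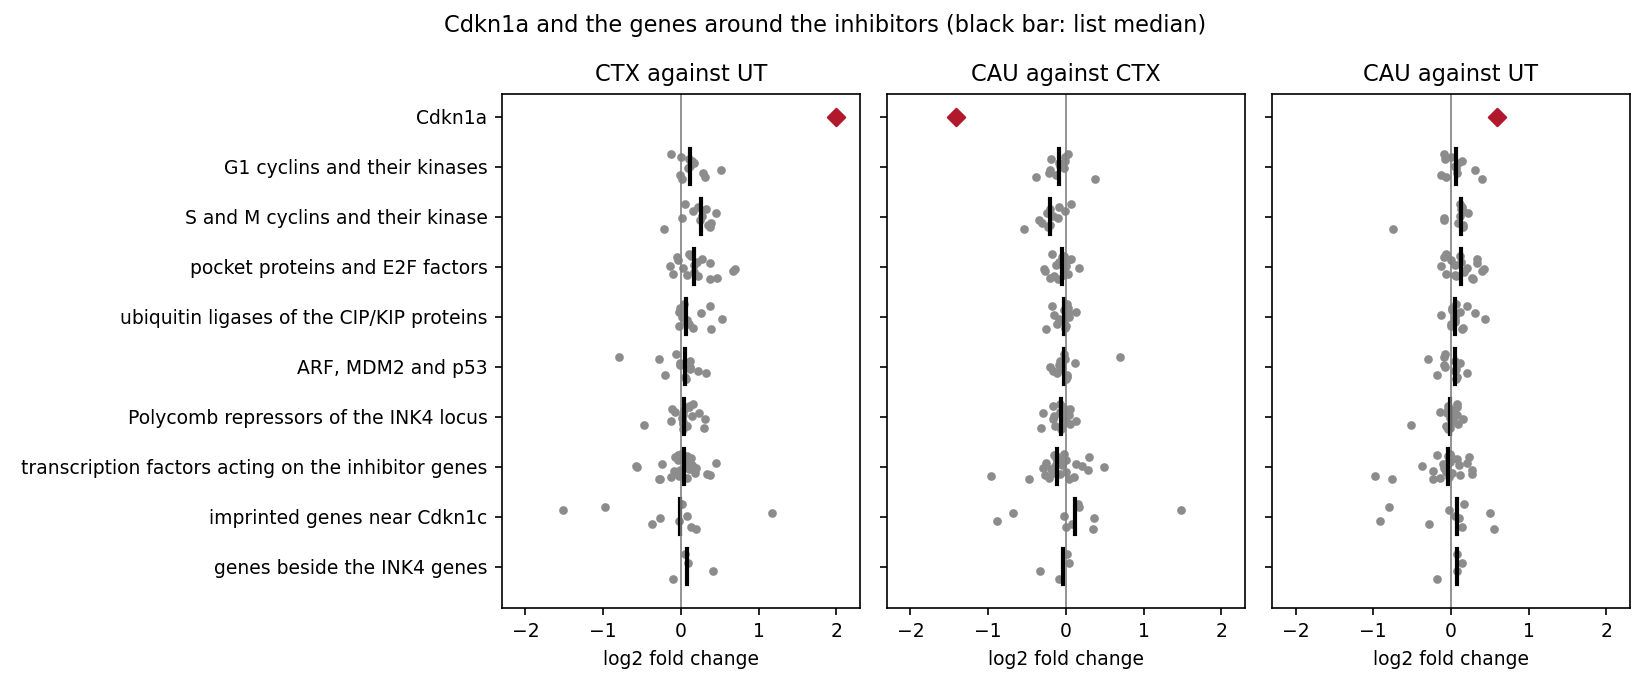
Log2 fold change (horizontal axis) of Cdkn1a (red diamond) and of each gene in 9 lists around the inhibitors (grey points, with the list median as a black bar), in the 3 comparisons (panels). The list medians lie between -0.01 and 0.26 in CTX against UT, where Cdkn1a is at 1.99, and between -0.20 and 0.11 in CAU against CTX, where it is at -1.41.

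Other genes moved with Cdkn1a in the same comparisons. Across all genes, 0.472% were called higher and 0.82% lower in CTX against UT. In CAU against CTX, 0.312% were called higher and 0.13% lower. Of 22 genes of the p53 response besides Cdkn1a, 7 rose and none fell in CTX against UT (median 0.32), and 4 fell and none rose in CAU against CTX (median -0.37). Ccng1, cyclin G1, was at 0.72 (SE 0.16, DESeq2 adjusted p = 0.00255) in CTX against UT and at -0.45 (SE 0.11, DESeq2 adjusted p = 0.0157) in CAU against CTX in the authors' deposited table. Sesn2, a stress-induced regulator of metabolism, was at 0.65 (SE 0.17, DESeq2 adjusted p = 0.0146) and at -0.69 (SE 0.15, DESeq2 adjusted p = 0.00238) in the same table and order. Of 10 markers of dividing cells, 4 rose in CTX against UT and all 10 were positive (median 0.46), and 0 were called in CAU against CTX, where all 10 were negative (median -0.29). Mki67, the Ki-67 proliferation antigen, was at 0.45 (SE 0.12, DESeq2 adjusted p = 0.0284) in CTX against UT in the authors' deposited table.

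Cell type markers differed in these comparisons too. The shares of all genes called were 0.472% higher and 0.82% lower in CTX against UT, and 0.312% higher and 0.13% lower in CAU against CTX. Of 12 granulosa genes, 3 rose in CTX against UT (all 12 positive, median 0.48) and 1, Inhbb, fell in CAU against CTX (median -0.13). Of 12 macrophage genes, 6 fell in CTX against UT (all 12 negative, median -1.03) and 2 rose in CAU against CTX (median 0.41). Of 10 T and NK cell genes, 2 fell in CTX against UT (median -1.60) and 2 rose in CAU against CTX (median 1.05). Of 10 surface epithelium genes, 1 fell in CTX against UT (all 10 negative, median -1.17) and 0 were called in CAU against CTX, where all 10 were positive (median 0.62). None of 9 adipocyte, 10 oviduct epithelium, 10 neutrophil, 10 luteal, 6 theca, 12 oocyte, 9 endothelial or 8 smooth muscle genes was called in either comparison. Among these, the oviduct epithelium median was -1.31 in CTX against UT (all 10 negative) and 1.11 in CAU against CTX (all 10 positive). The neutrophil median was -1.28 in CTX against UT (9 of 10 negative) and 2.47 in CAU against CTX (9 of 10 positive). The adipocyte median was -1.54 in CTX against UT and -0.15 in CAU against CTX, with all 9 genes negative in both. The lists hold fold changes and not levels, so summed levels per group and markers at 0 cannot be given, and the label of ovarian tissue was checked only in that all 12 granulosa and all 12 oocyte markers had values. The part of tissue makeup in the Cdkn1a result was not tested.

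The genes most like Cdkn1a were sought among the 32 genes called in both CTX against UT and CAU against CTX, by the Euclidean distance between log2 fold changes in these 2 comparisons, which describe 3 group levels from 9 samples. The 5 nearest were Eda2r at a distance of 0.43, Ano3 at 0.86, Mfsd2a at 1.25, Cpt1c at 1.34 and Inhbb at 1.37. Eda2r, a receptor of the TNF receptor family that p53 induces, was at 1.68 in CTX against UT and at -1.11 in CAU against CTX in the authors' deposited table. Mfsd2a, a transporter of lysophospholipids, was at 1.01 (SE 0.14) and at -0.63 (SE 0.14), and Cpt1c, a relative of the carnitine palmitoyltransferases, at 0.94 (SE 0.20) and at -0.59 (SE 0.14) in the same table and order. Mfsd2a, Cpt1c and Inhbb had smaller differences than Eda2r in both comparisons. In CAU against UT, Eda2r was at 0.58 (SE 0.24), Ano3 at 0.89 (SE 0.58), Mfsd2a at 0.38 (SE 0.18), Cpt1c at 0.36 (SE 0.21) and Inhbb at 0.54 (SE 0.21) by the authors' deposited table, none of them called. These values add nothing independent, since CAU against UT is, up to a constant, the sum of the 2 log2 fold changes that chose the genes. All 5 have a RefSeq window before a start. The p53 pair shown above was in 0 of the 5, and in 0 of 16 genes of the p53 response list with a window. By gene, 154 of the 27025 with a window held the pair, so a count of 0 is usual for this few genes. Only this exact pattern in these windows was searched, so the counts cannot tell whether these genes have other p53 sites.

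**Figure D4:**
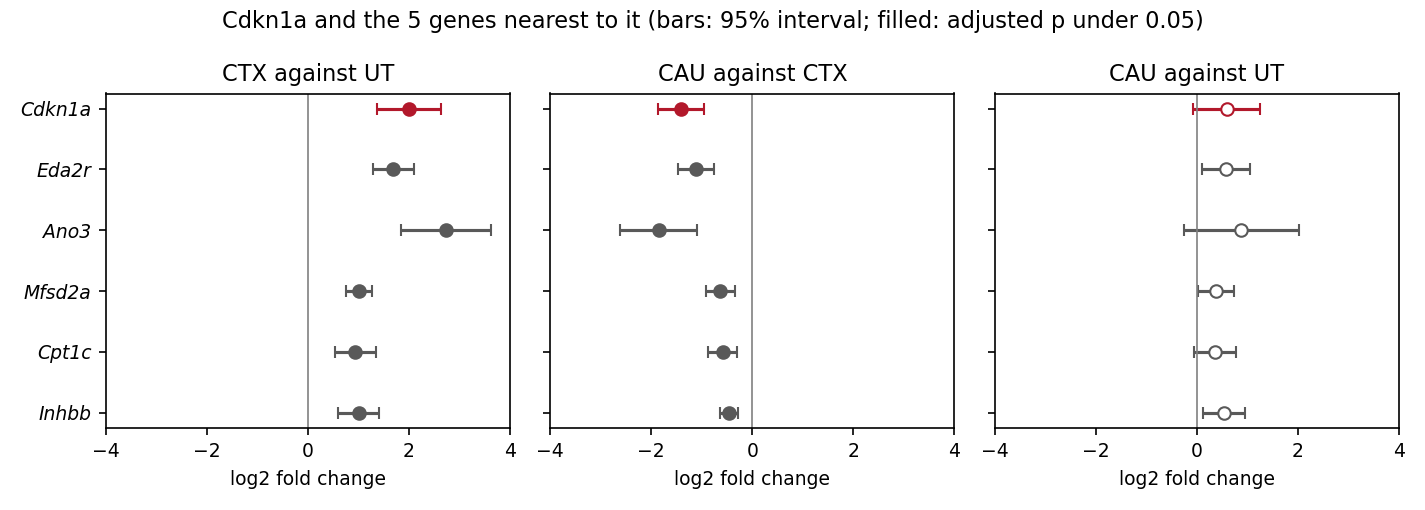
Log2 fold change (horizontal axis) with 95% intervals for Cdkn1a (red) and the 5 genes nearest to it (grey, nearest at the top) in the 3 comparisons (panels); filled points have a deposited adjusted p under 0.05, as the choice of these genes required in the first 2 panels. The points in CAU against UT, between 0.36 and 0.89 and none filled, follow from the other 2 panels, whose values add up to them.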

How the data were processed

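Ovarian RNA was sequenced in 9 samples. Per the submitters' processing notes, HISAT2, Bowtie2, RSEM 1.3.1, DESeq2 1.44.0 and GRCm38.p6 were used, without roles or order; the sources used here do not state filters, covariates, annotation or strand setting. The authors deposited, per the file headers, 3 values per gene and pair of groups: the log2 fold change, the p-value of DESeq2 and its q-value (called adjusted p here). The q-value differed by at most 7.74e-05 from a Benjamini-Hochberg adjustment recomputed over each comparison. Between 215 and 272 genes were blank in a comparison and left out.

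To get the implied SE, the size of a log2 fold change was divided by the z that its p-value (2-sided) gives, on the assumption of a Wald test without shrinkage; 95% intervals are normal. Within 18773 genes with all 3 comparisons, the sum of CTX against UT and CAU against CTX less CAU against UT was within 0.01 of its median in 18772. A planned count test could not be run without values per library.

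The members and lists were chosen with earlier results of these data known. Named genes are the 7 members, the called genes (up to 5) of each list or the one with the smallest SE, 8 fixed genes and the 5 nearest to Cdkn1a; of these, those that bear on the inhibitors are given, and a gene named outside the rule is marked so. Positions, windows and starts come from RefSeq (GRCm38.p6), and overlaps from GENCODE on the same assembly. The scripts were tested on simulated data. Alternatives were other thresholds and adjustments, a limit on SE, centring on the median of all genes and z scaled to a spread of 1. Work was done in Python 3.11.15 (scipy 1.17.1, pandas 2.3.3, numpy 2.4.6; figures with matplotlib 3.10.9).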

Additional observations from a re-analysis of the deposited data

How the results depend on the processing

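The number of inhibitors called, 1 in CTX against UT, 1 in CAU against CTX and 0 in CAU against UT, was the same under all 6 alternatives run. All of them reuse the deposited fold changes and p-values, so alignment, counting and the DESeq2 fit were not varied. The DESeq2 adjusted p was 9.15e-07 and 6.35e-06 where Cdkn1a was called, and 0.749 or above for every other value. The other thresholds and the Benjamini-Yekutieli adjustment could therefore not alter these counts. The adjusted p of Cdkn1a ran from 5.54e-07 to 1.55e-06 in CTX against UT and from 3.36e-09 to 6.35e-06 in CAU against CTX, over the deposited value and the alternatives that leave the threshold as it is, without the Benjamini-Yekutieli adjustment. Centring on the median of all genes was the only alternative that altered the fold changes, so a sign could turn only there. It turned for 1 inhibitor in 1 comparison, Cdkn2d in CTX against UT, to 0.016. Under the limit on SE, Cdkn2a was left out because its SE was above 1. Counts over all genes moved more. In CTX against UT the 249 calls became 415 at an adjusted p under 0.10, 117 at 0.01 and 98 by Benjamini-Yekutieli. In CAU against CTX the 85 became 43 at 0.01, 34 by Benjamini-Yekutieli and 237 with z scaled to a spread of 1. In CAU against UT the 10 became 5 by Benjamini-Yekutieli and 255 with z scaled, and Cdkn1a was not among them. Of the pathway genes, Ezh2 and Ccnd2 passed in CTX against UT once centred on that median (adjusted p = 0.0282 and 0.0340). With z scaled, 6 passed in CAU against CTX, Cebpa, Ccnd2, Ccnb2, Ccnf, Cbx2 and Kdm6b, and 2 in CAU against UT, Rbl1 and Cebpa. Why these calls moved was not tested beyond the settings themselves.

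No paired analysis was possible because the table holds no values per library; for the same reason, leaving out single replicates was not run. Depth is unknown, so the wide errors of Cdkn2a and Cdkn2b cannot be set against their counts.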
